A study of Mus musculus with 2 samples.

Results

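The 8 genes described here encode parts of cytoplasmic dynein, the motor that carries cargo toward the minus ends of microtubules, and 1 regulator of it. They are the LC8-type light chains Dynll1 and Dynll2, the roadblock-type light chain Dynlrb1, the Tctex-type light chain Dynlt3, the heavy chain Dync1h1, the intermediate chain Dync1i2, the light intermediate chain Dync1li1 and Pafah1b1, which encodes the regulator LIS1. The set is 8 of the 27998 genes listed in the deposited matrices, and it was chosen by the counts of these libraries: Dynll1 was about 4 times lower in the mutant library. That ratio is therefore a description and supports nothing by itself. Telencephalic tissue of newborn C57BL/6 mice (postnatal day 0), cerebral cortex per the study's methods, was dissociated into single cells for droplet sequencing (10x Genomics Chromium), in which every captured RNA molecule carries a unique molecular identifier (UMI). A single library came from mice labelled wild type (WT) and a single one from mice of the genotype STINGf/f;Nestin-Cre (cKO). In the latter the floxed STING gene (Tmem173) is deleted where the Nestin promoter drives Cre, which is known to act in neural progenitors and their progeny. The control is WT in the labels, and the study's text uses both wild type and STING fl/fl for it in this experiment. The name WT is kept here, and the controls may have carried the floxed alleles. The number of animals behind each library and whether they were pooled are not stated in the labels.

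The motor subunit of dynein is the heavy chain, an ATPase that walks along the microtubule, and the intermediate, light intermediate and light chains hold the complex together and link it to cargo and to dynactin. LIS1 binds the motor domain, and loss of it, like mutation of the heavy chain, is known to disturb the migration of cortical neurons. The LC8 chains bind short linear motifs in many proteins that are not part of dynein.

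With 1 library per group there is no replicate check, no test was run, and every interval below is a 95% interval that covers counting error only. Once barcodes with few genes, a high mitochondrial share or a doublet call were removed, 6601 WT cells with 55820331 UMIs and 5974 cKO cells with 55068000 UMIs were kept, with medians of 6552 and 7537 UMIs per cell. The libraries shared 19 barcode sequences. Tmem173 had 126 UMIs in WT and 18 in cKO. Endothelial-like, mural-like and microglia-like cells held 44, 42 and 23 of these in WT and 10, 4 and 3 in cKO. These are raw counts, over 113, 97 and 71 cells in WT but 57, 41 and 35 in cKO, and not levels. Radial glia/astrocyte-like, cycling progenitor-like and intermediate progenitor-like cells held 7, 6 and 2 in WT and 0 each in cKO. Projection neuron-like, GABAergic neuron-like, striatal projection neuron-like and Cajal-Retzius-like cells had 0 UMIs of it in either library, so the deletion could not be checked in neurons. Xist had 10 UMIs in WT and 71370 in cKO, while the Y-linked genes Ddx3y, Eif2s3y, Kdm5d and Uty had 2871, 4881, 1117 and 902 UMIs in WT and 0, 0, 2 and 4 in cKO. Sex thus cannot be told apart from genotype in these libraries. Of the 31 clusters, 8 had over 90% of their cells from 1 library, among them 4 of the 7 projection neuron-like clusters.

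Dynll1 (ENSMUSG00000009013) is on the minus strand of chromosome 5, at chr5:115297110-115300999 in GRCm38 (GENCODE M21), and Dynll2 (ENSMUSG00000020483) on the minus strand of chromosome 11, at chr11:87979525-87987533. Both have a coding sequence of 270 bases with its stop codon. The coding sequences are shown because the ratios of these genes differed and because reads of close copies can be split or lost in counting. Capitals mark the bases that differ from Dynll1. Dynll2 differed from Dynll1 at 51 of 270 bases, which is an identity of 81.1%, and 46 of the 51 differences were at the third base of a codon. Gm6788, an annotated processed pseudogene on the minus strand of chromosome 19 (chr19:28763161-28763430), differed from Dynll1 at 9 bases, an identity of 96.7%. Its gene identifier was not among those listed in the matrices.
Dynll1: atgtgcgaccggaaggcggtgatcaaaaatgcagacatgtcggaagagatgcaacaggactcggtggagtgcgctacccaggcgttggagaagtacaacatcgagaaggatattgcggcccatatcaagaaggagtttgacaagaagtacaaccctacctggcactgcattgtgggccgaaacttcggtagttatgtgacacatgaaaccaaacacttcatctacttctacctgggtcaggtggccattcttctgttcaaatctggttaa
Dynll2: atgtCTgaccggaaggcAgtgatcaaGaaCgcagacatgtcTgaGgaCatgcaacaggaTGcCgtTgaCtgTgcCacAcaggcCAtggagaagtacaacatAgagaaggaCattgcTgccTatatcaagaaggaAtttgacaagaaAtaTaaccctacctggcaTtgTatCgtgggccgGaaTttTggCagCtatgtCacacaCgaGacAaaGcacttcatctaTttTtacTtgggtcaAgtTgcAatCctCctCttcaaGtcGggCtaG
Gm6788: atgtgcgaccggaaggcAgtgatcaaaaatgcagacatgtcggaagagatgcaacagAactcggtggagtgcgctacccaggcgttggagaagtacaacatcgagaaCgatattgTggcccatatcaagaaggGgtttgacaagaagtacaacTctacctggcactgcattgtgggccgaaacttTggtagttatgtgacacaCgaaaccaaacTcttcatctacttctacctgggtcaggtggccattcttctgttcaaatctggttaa

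The promoter window of Dynll1 in RefSeq (GRCm38.p6, minus strand, chr5:115300941-115301240, 250 bases before to 50 after the start) is shown because Dynll1 had the lowest ratio of the set. Capitals mark matches to the CCAAT box (CCAAT) and the GC box (GGGCGG), searched on both strands. The window held 2 matches to each, and neither the TATA box (TATAAA) nor the cyclic AMP response element (TGACGTCA). Of 32851 promoter windows of the same length, 37.4% held a CCAAT box, 35.7% a GC box, 13.6% a TATA box and 1.79% the cyclic AMP response element.
Dynll1 promoter: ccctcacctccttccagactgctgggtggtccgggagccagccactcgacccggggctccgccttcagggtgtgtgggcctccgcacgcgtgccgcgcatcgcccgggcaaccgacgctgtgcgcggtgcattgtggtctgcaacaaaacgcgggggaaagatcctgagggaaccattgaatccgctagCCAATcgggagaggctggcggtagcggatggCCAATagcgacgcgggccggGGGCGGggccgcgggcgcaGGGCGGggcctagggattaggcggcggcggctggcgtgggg

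Over all kept cells, 71622 UMIs of WT and 16851 of cKO were assigned to Dynll1. As CPM (UMIs scaled to a library total of 1e6), its level was 1283 (95% Poisson interval 1274 to 1292) in WT and 306 (301 to 311) in cKO, which is 4.19-fold lower. On the log2 scale the cKO level over the WT level came to -2.07 (-2.09 to -2.04). Dynll1 ranked 103rd of all genes by UMIs in WT and 482nd in cKO. Of the 103 genes with at least as many WT UMIs as Dynll1 it was the only one at least 2-fold lower in cKO. That cutoff is the WT count of Dynll1 itself, and the gene was chosen on this ratio, so nothing is read from that. Over the 14143 genes that reached 50 UMIs in WT or cKO, 19.5% were at least 2-fold lower and 2.62% at least 2-fold higher in cKO, and the median log2 ratio was -0.24. Of these genes, 562 had a lower ratio than Dynll1. Of the 8 genes, all of which had at least 50 UMIs, 1 was at least 2-fold lower and 0 were at least 2-fold higher; since the set was chosen on this contrast, nothing is read from that count.

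**Figure D1:**
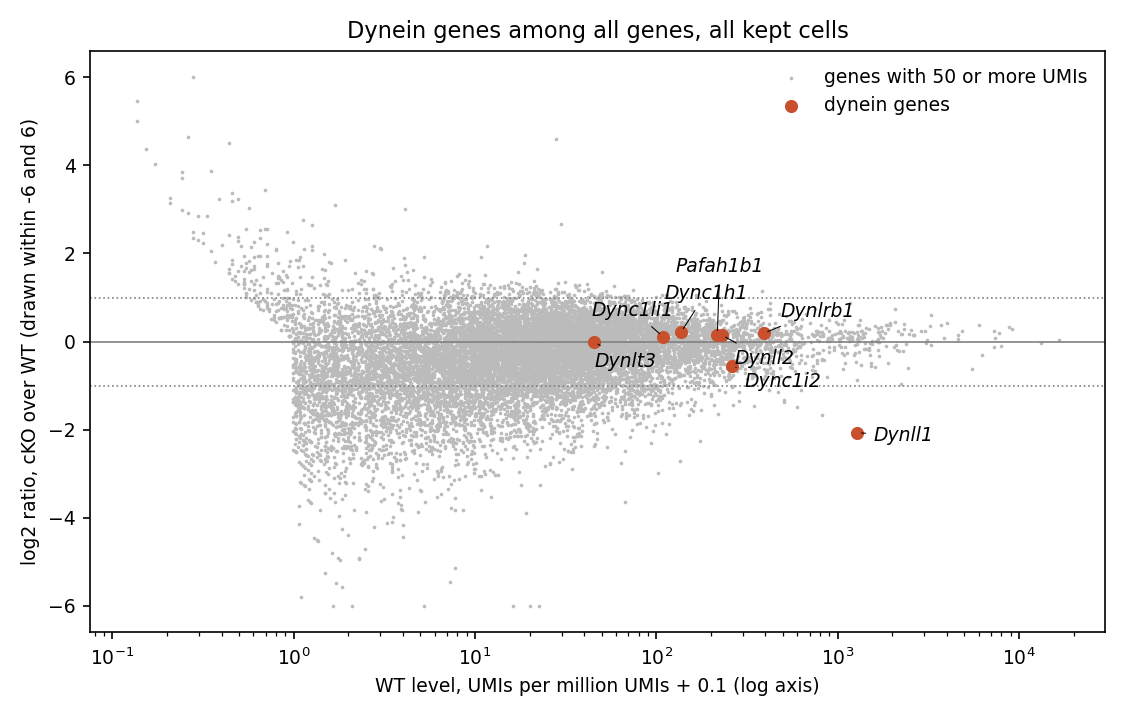
Each grey point is a gene that reached 50 UMIs in WT or cKO and had UMIs in both, placed by its WT level (horizontal, CPM plus 0.1, log axis) and its log2 ratio of cKO over WT (vertical, drawn within -6 and 6). Orange points are the 8 dynein genes and dotted lines mark 2-fold. Dynll1, on whose ratio the set was chosen, sits at -2.07, and the other 7 dynein genes lie between -0.56 and 0.22.

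The second LC8 gene, Dynll2, had 12841 UMIs in WT and 14027 in cKO, or 230 (226 to 234) and 255 (251 to 259) CPM, a log2 ratio of 0.15. Dynlrb1, whose product binds the intermediate chains, had 392 (386 to 397) CPM in WT and 447 (441 to 453) in cKO, with a log2 ratio of 0.19. Dynlt3, a light chain gene on the X chromosome, had 45.6 (43.8 to 47.4) CPM in WT and 45.4 (43.6 to 47.2) in cKO, intervals that overlap over nearly their whole length. Of these 3 light chain genes, Dynlrb1 differed most between the libraries, at 1.14-fold.

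Dync1h1, the heavy chain gene, stood at 137 (134 to 140) CPM in WT and 159 (156 to 162) in cKO, a log2 ratio of 0.22. Dync1li1, a light intermediate chain that joins cargo adaptors to the motor, stood at 109 (106 to 111) and 118 (115 to 120) CPM. Pafah1b1 stood at 217 (213 to 221) CPM in WT and 242 (238 to 246) in cKO, a log2 ratio of 0.16. Dync1i2, an intermediate chain gene, was the second member that was lower in cKO, with 14564 UMIs in WT and 9769 in cKO, or 261 (257 to 265) and 177 (174 to 181) CPM. Its log2 ratio was -0.56 (-0.59 to -0.52), short of 2-fold, and 34.9% of all genes with at least 50 UMIs had a lower one. With at least 1000 genes and at most 5% mitochondrial UMIs per cell the Dync1i2 ratio was -0.23 (-0.31 to -0.15). By mitochondrial share it was -0.08 (-0.32 to 0.16) in cells under 2.5%, -0.24 at 2.5% to 5%, -0.58 at 5% to 7.5% and -0.80 at 7.5% to 10%. The part of mitochondrial share in the Dync1i2 ratio was not tested. In all, 5 of the 8 genes had an interval above 0, 2 (Dynll1 and Dync1i2) an interval below 0, and Dynlt3 an interval that held 0. Of all 14143 genes, 29.8% had an interval above 0 and 55.6% below 0, so at this depth most genes cleared it. The median log2 ratio of the 7 genes other than Dynll1 was 0.15, against -0.24 over all genes, and Dync1i2 was the only one of the 7 below that median. With TMM factors in place of totals all ratios over all kept cells are higher by 0.26, which puts Dynll1 at -1.80, Dync1i2 at -0.29 and Dynlt3 at 0.26.

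Because CPM depends on all other genes, Dynll1 was also expressed as a share of the UMIs of both LC8 genes, which no scaling of the totals can move. UMIs are counted per captured molecule and are not scaled to length. Dynll1 made up 84.8% (95% Clopper-Pearson interval 84.6 to 85.0) of 84463 LC8 UMIs in WT and 54.6% (54.0 to 55.1) of 30878 in cKO. The share in GABAergic neuron-like cells was 75.9% in WT and 22.7% in cKO. In projection neuron-like cells it was 85.6% and 58.0%, and in endothelial-like cells 95.8% and 79.3%. In ependymal-like cells (44 in WT, 11 in cKO) it was 96.9% (96.1 to 97.5) and 95.5% (93.4 to 97.0), intervals that overlap. The sum of both LC8 genes in cKO was 37.1% of its WT level over all kept cells.

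Cells were grouped by clustering both libraries together without the dynein genes, and clusters were named by markers, with names ending in -like. There were 11 named classes with at least 20 cells in each library. In each of the 11, Dynll1 was at least 2-fold lower in cKO. The share of genes at least 2-fold lower was 16.1% in projection neuron-like cells, 12.4% in intermediate progenitor-like, 11.7% in GABAergic neuron-like, 11.7% in striatal projection neuron-like and 4.06% in Cajal-Retzius-like cells. It was 8.59% in cycling progenitor-like, 9.29% in radial glia/astrocyte-like, 9.68% in OPC-like (oligodendrocyte precursor), 13.4% in endothelial-like, 12.3% in mural-like and 8.19% in microglia-like cells.

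In the glutamatergic lineage, projection neuron-like cells (1890 WT and 2462 cKO) held 29104 Dynll1 UMIs in WT and 8704 in cKO, or 1475 (1458 to 1492) and 349 (342 to 356) CPM. The log2 ratio was -2.08 (-2.11 to -2.05). Different clusters held most of this class in each library: one led by Ntf3 had 704 WT cells and 0 cKO cells, and those led by Adamts2 and Id2, by Nwd2 and by Adamts2 and Fam19a2 had 859, 608 and 553 cKO cells and 97, 6 and 2 WT cells. Intermediate progenitor-like cells had 1276 CPM in WT and 283 in cKO, a log2 ratio of -2.17 (-2.24 to -2.10), and 839 of the 980 WT cells and 482 of the 794 cKO cells came from clusters with 3 cells of the other library each. With the stricter cell filter, of at least 1000 genes and at most 5% mitochondrial UMIs, that ratio was -2.86. Those clusters, both with Eomes and Sstr2 among their leading genes, had 1208 (1176 to 1240) CPM in WT and 139.6 (127 to 153) in cKO. The cluster led by Crym, with 138 WT and 309 cKO cells, had 1480 and 412 CPM, so the ratio of the class mixes clusters of unlike level. Pooling both classes, an alternative chosen after seeing the data, gave -2.09.

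GABAergic neuron-like cells had 957 (930 to 985) CPM in WT and 127 (117 to 138) in cKO, a log2 ratio of -2.91 (-3.03 to -2.79) and 7.52-fold lower. Here too a cluster led by Dlx6os1 held 635 WT and 7 cKO cells, and a cluster led by Tiam2 held 5 WT and 265 cKO cells. Striatal projection neuron-like cells had 1218 and 300 CPM, and Cajal-Retzius-like cells, early-born neurons of the marginal zone, 1259 and 373 CPM. The Cajal-Retzius-like ratio of -1.76 (-1.91 to -1.60) was the one nearest to 0 among the 11 classes.

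Progenitors and glia gave like values. Cycling progenitor-like cells had 1217 CPM in WT and 323 in cKO (log2 ratio -1.91), radial glia/astrocyte-like cells 743 and 175 CPM (-2.09) and OPC-like cells 1238 and 309 CPM (-2.0). Cells outside the neural lineage showed the difference as well. Endothelial-like cells had 2142 Dynll1 UMIs in 113 WT cells and 119 in 57 cKO cells, or 1247 (1195 to 1301) and 126 (105 to 151) CPM. Their log2 ratio of -3.30 (-3.58 to -3.04) was the lowest of the 11 classes and corresponded to a 9.88-fold lower level. Mural-like cells had 1162 and 210 CPM (-2.47) and microglia-like cells 435 and 92.5 CPM (-2.23). The mural-like ratio was -1.62 with each library clustered alone and -1.70 without cell filters, and the microglia-like ratio was -1.15 as the mean of each cell's CPM. Mural-like cells had a median of 20219 UMIs in WT and 7740 in cKO. The part of this depth in the ratios of any member in that class was not tested.

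**Figure D2:**
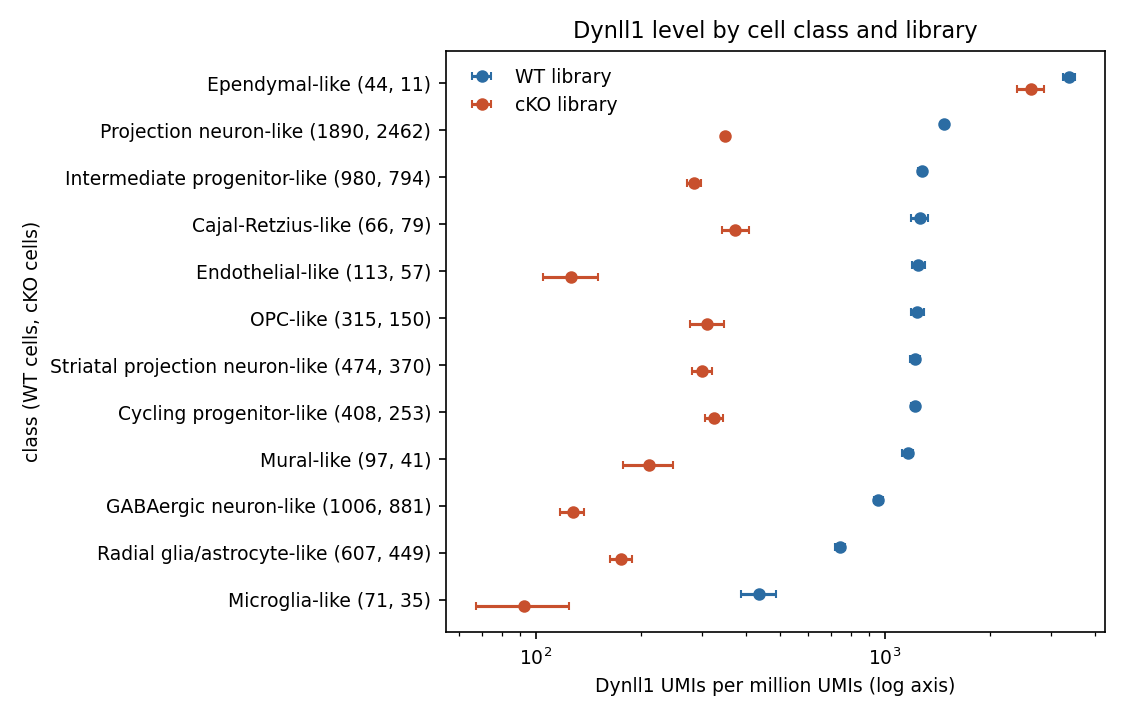
Points are the summed Dynll1 CPM (horizontal, log axis) of each named class (vertical, with the number of WT and cKO cells), blue for the WT and orange for the cKO library, with 95% Poisson intervals as bars. The cKO point lies left of the WT point in each of the 12 classes drawn, by 3.38-fold to 9.88-fold in the 11 classes with enough cells and by 1.29-fold in ependymal-like cells.

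Ependymal-like cells stood apart. They carry motile cilia, whose arms are built from axonemal dyneins that share the LC8 light chains with the cytoplasmic motor. Only 11 such cells were kept in the cKO library, under the minimum of 20, beside 44 in WT. They had 2523 Dynll1 UMIs in WT and 527 in cKO, or 3366 (3236 to 3500) and 2615 (2397 to 2848) CPM, the highest level of any class in both libraries. The log2 ratio was -0.36 (-0.50 to -0.23), and that interval did not overlap the interval of any of the other 11 classes. Per cell, the 11 cKO cells held 7, 9, 11, 24, 37, 45, 48, 72, 76, 83 and 115 Dynll1 UMIs, and the 44 WT cells held from 2 to 194 with a median of 48.5. The cKO cells were deeper, with a median of 19269 UMIs against 15986. As CPM per cell the median was 3221 in WT and 2060 in cKO, and 1 cKO cell, at 609 CPM, lay below the lowest WT cell, at 803 CPM. Ependymal-like cells held 3.52% of all Dynll1 UMIs in WT and 3.13% in cKO, and without them the ratio over all kept cells was -2.08. The defining ependymal gene Foxj1, the transcription factor of motile ciliogenesis, had 985 UMIs in these WT cells and 331 in the cKO cells, or 1314 and 1643 CPM, and its interval lay above 0. It was the only one of the 8 ependymal markers for which that held. In 6 of the 8 the interval lay below 0, with log2 ratios from -1.56 (Ccdc153, 351 and 32 UMIs) to -0.34 (Pifo, 582 and 124 UMIs), and in 1 it held 0. The median log2 ratio of the 8 markers was -0.52, in the same direction as that of Dynll1 in these cells. The part of this in the Dynll1 ratio was not tested.

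The order of classes by Dynll1 level was partly kept. In WT, projection neuron-like cells were highest and were followed by 7 classes between 1276 and 1162 CPM, in which each interval overlapped that of the next. GABAergic neuron-like, radial glia/astrocyte-like and microglia-like cells came below, each apart from its neighbours. In cKO, Cajal-Retzius-like, projection neuron-like, cycling progenitor-like, OPC-like, striatal projection neuron-like and intermediate progenitor-like cells formed a chain of overlapping intervals from 373 to 283 CPM. Microglia-like cells were again lowest by value. Their interval (67.2 to 124) overlapped those of endothelial-like (105 to 151) and GABAergic neuron-like cells (117 to 138). Endothelial-like cells ranked 4 of 11 in WT and 10 of 11 in cKO, each time among classes with overlapping intervals. Across the 11 classes Pearson's r between the libraries was 0.75 and Spearman's rho 0.64, as a description over classes that share the same 2 libraries.

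Within clusters the picture was the same. The 17 clusters with at least 50 cells of each library had Dynll1 log2 ratios from -3.31 to -1.48 with a median of -2.10, and all 17 were at least 2-fold lower in cKO. Dynll1 was chosen on this contrast and the clusters share the same 2 libraries, so nothing is read from that count. Over the 25 clusters with at least 50 WT cells the level ran from 435 to 2010 CPM with a median of 1199, and over the 21 with at least 50 cKO cells from 77.3 to 571 CPM with a median of 209. The ranges overlapped through 1 WT cluster, the microglia-like one, which lay below the highest cKO cluster.

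**Figure D3:**
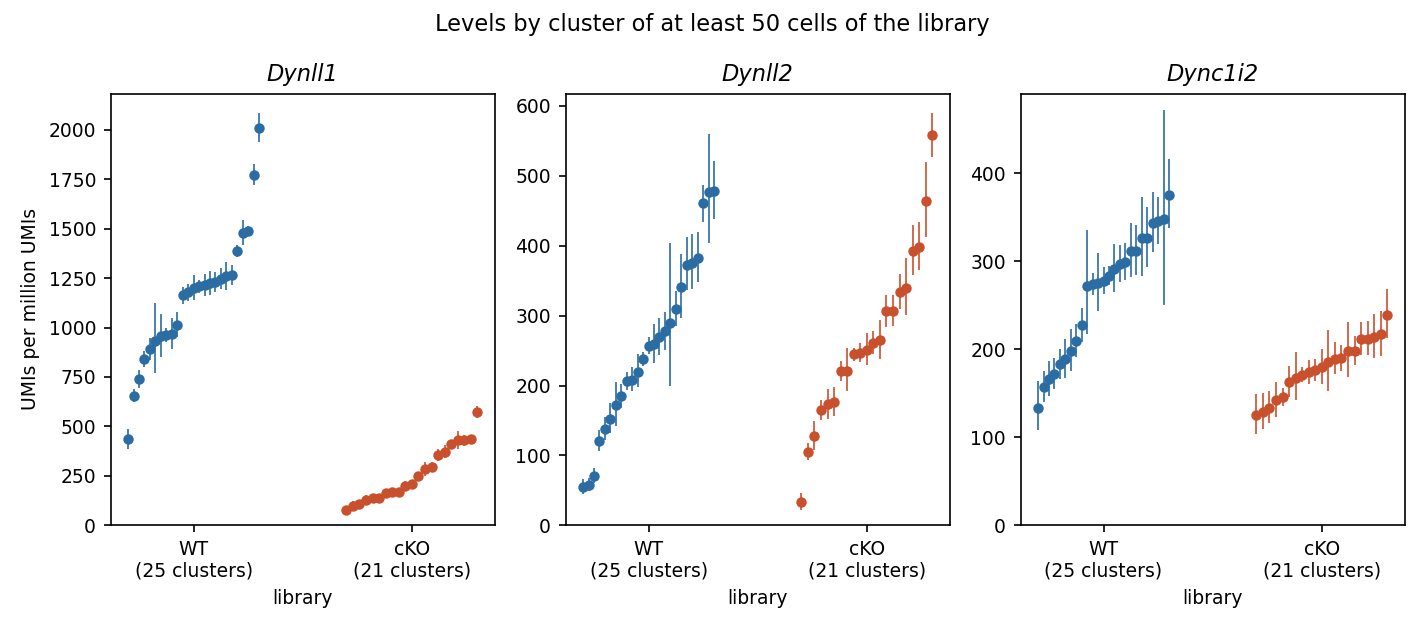
Each point is a cluster with at least 50 cells of the library, ordered by level within each library, with the level in CPM (vertical, from 0) and its 95% Poisson interval, for Dynll1, Dynll2 and Dync1i2. Dynll1 levels are 435 to 2010 in WT and 77.3 to 571 in cKO, whereas the ranges of Dynll2 (54.7 to 478 and 32.9 to 558) are such that the WT range lies within the cKO range, and those of Dync1i2 (134 to 376 and 125 to 240) overlap in part.

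The Dynll1 ratio moved with the depth of the cells. In cells with fewer than 3000 UMIs its level was 885 CPM in WT and 117 in cKO, a log2 ratio of -2.92, and in cells with 3000 to 6000 UMIs it was 1051 and 130 CPM (-3.02). Cells with 6000 to 12000 UMIs gave 1173 and 198 CPM (-2.57), and cells with 12000 or more gave 1497 and 448 CPM (-1.74). Within projection neuron-like cells the ratio went from -3.06 in the shallowest to -1.74 in the deepest cells. Within GABAergic neuron-like cells it was -3.16, -3.40 and -3.22 in the shallower bins, in order of depth. In the deepest bin of that class, with 28 WT and 53 cKO cells, it was -2.08. The level of both libraries was thus highest in the deepest cells. With each cell thinned to 1000 UMIs the ratio was -2.46. By mitochondrial share the ratio ran from -2.46 in cells under 2.5% to -1.93 in cells at 5% to 7.5%. In the barcodes that did not pass the filters, 3949 in WT and 3118 in cKO, it was -2.07. Dynll1 was at least 2-fold lower in each of these bins. It was chosen on this contrast and the bins come from the same libraries, so nothing is read from that. The part of depth in the size of the ratio was not tested.

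After thinning to 1000 UMIs per cell, 72.7% (70.6 to 74.7) of projection neuron-like cells had a Dynll1 UMI in WT and 20.1% (18.5 to 21.7) in cKO. Without thinning the shares were 96.3% and 69.5%. For GABAergic neuron-like cells they were 57.0% and 9.78% thinned, and 92.1% and 35.8% unthinned. After thinning, microglia-like cells had the lowest share, at 33.8% and 6.06%, the latter from a class of only 35 kept cells. Unthinned in cKO, GABAergic neuron-like cells were lowest, with 64.2% of cells at 0 Dynll1 UMIs against 45.7% of microglia-like cells. No class was taken to lack Dynll1, so the share that free RNA gives was not measured.

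Dynll2 showed no such common difference. Its log2 ratio was 0.51 (0.41 to 0.61) in GABAergic neuron-like cells, with 304 CPM in WT and 433 in cKO. The clusters of this class differ in Dynll2 level, and the one led by Dlx6os1, with 635 of the 1006 WT cells and 7 cKO cells, had 209 CPM. In the clusters of the class with at least 50 cells of each library, led by Maf and by Npas1, the ratio was 0.22 (0.07 to 0.37) and 0.07 (-0.13 to 0.27). The class ratio of Dynll2 was 0.40 (0.25 to 0.55) in cycling progenitor-like cells and 0.25 (0.06 to 0.45) in radial glia/astrocyte-like cells. In endothelial-like, mural-like and microglia-like cells it was below 0, at -0.74 (-1.37 to -0.14), -0.64 (-1.30 to -0.03) and -0.65 (-1.15 to -0.17), which rest on 31, 26 and 52 cKO UMIs. With single cells classed by marker score it was -0.00 in endothelial-like and 0.26 (-0.32 to 0.82) in mural-like cells. In the other 5 classes, projection neuron-like cells among them at 0.02, the interval held 0. Dynll2 was highest in Cajal-Retzius-like cells in WT (373 CPM) and in GABAergic neuron-like cells in cKO, where the interval overlapped that of Cajal-Retzius-like cells, and lowest in endothelial-like cells in both (54.7 and 32.9 CPM).

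Dync1i2 was lower in most classes but by varying amounts. Its log2 ratio was lowest in striatal projection neuron-like cells, at -1.0 (-1.15 to -0.84), with 345 CPM in WT and 173 in cKO, which is 1.99-fold lower. It was -0.71 (-0.77 to -0.65) in projection neuron-like, -0.63 in intermediate progenitor-like and -0.61 in GABAergic neuron-like cells. The interval held 0 in radial glia/astrocyte-like (-0.11), OPC-like (-0.25) and mural-like cells, where the levels were 183 CPM in both libraries. In 8 of 11 classes the interval lay below 0, and the ratio was past 2-fold in 0 classes. In striatal projection neuron-like cells it was past 2-fold under 4 alternatives, the lowest at -1.04 with a stricter cell filter (1000 genes or more, mitochondrial share up to 5%). Over the 17 clusters with at least 50 cells of each library it ran from -1.08 to -0.08 with a median of -0.56. In WT the neuron-like classes and intermediate progenitor-like cells, between 345 and 275 CPM, stood above the other classes, the highest of which had 196 CPM. In cKO 10 classes from 217 to 125 CPM formed 1 chain of overlapping intervals, and microglia-like cells stood below it at 73.6 CPM. Across the 11 classes r between the libraries was 0.74 and rho 0.50.

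Dynlrb1 had its interval above 0 in 5 of 11 classes and below 0 in 0, with ratios from -0.09 to 0.28. Among the 5, the sign turned under 1 alternative in projection neuron-like (0.12 to -0.16) and in intermediate progenitor-like cells (0.20 to -0.23). Its order of classes was close to the same in both libraries (r = 0.98, rho = 0.95 over 11 classes), with Cajal-Retzius-like cells highest at 526 and 532 CPM. Dync1h1 was above 0 in 6 classes, with the highest ratio of 0.48 (0.17 to 0.79) in Cajal-Retzius-like cells. Among the 6, the sign turned under 1 alternative in projection neuron-like (0.20 to -0.10) and in GABAergic neuron-like cells (0.23 to -0.29). All 10 pairs of classes adjacent in Dync1h1 level had overlapping intervals in both libraries. Dync1li1 ran from -0.10 (-0.17 to -0.02) in projection neuron-like cells, where it was 0.07 with TMM factors, to 0.46 (0.05 to 0.86) in mural-like cells. Its level was highest in Cajal-Retzius-like cells (157 and 156 CPM) and lowest in radial glia/astrocyte-like cells (38.5 and 48.7 CPM).

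Pafah1b1 was above 0 in 6 of 11 classes. Its ratio was 0.80 (0.37 to 1.23) in microglia-like, 0.63 (0.39 to 0.88) in endothelial-like and 0.49 (0.34 to 0.65) in striatal projection neuron-like cells, and 0.09 (0.04 to 0.15) in projection neuron-like cells, where it was -0.06 with the stricter cell filter. Its order of classes was the least alike between the libraries of the 8 genes, with r = 0.49 and rho = 0.32 over 11 classes. That order was mostly not resolved by counting error. The highest class stood 2.13-fold above the lowest in WT and 1.46-fold in cKO. Classes adjacent in level had overlapping intervals in 9 pairs in WT and in all 10 in cKO. Dynlt3 differed from the rest in where it was found, with endothelial-like (116 CPM in WT) and mural-like (111) cells highest and intermediate progenitor-like cells (20.6) lowest. In intermediate progenitor-like cells its ratio was 0.63 (0.30 to 0.95), on 125 WT and 222 cKO UMIs, and with the stricter cell filter it was -0.48 (-1.51 to 0.64). Most cells of the class lay in a cluster of 839 WT and 3 cKO cells, with 17.8 CPM of Dynlt3 in WT (81 UMIs), or in one of 3 WT and 482 cKO cells, with 14.9 CPM in cKO (49 UMIs). The cluster led by Crym held the other 138 WT and 309 cKO cells, with 29.2 and 47.0 CPM (0.69, 0.20 to 1.20), and the part of this makeup in the class ratio was not tested. Dynlt3 is X-linked and Xist differed between the libraries, and the part of either in the ratios of Dynlt3 was not tested.

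**Figure D4:**
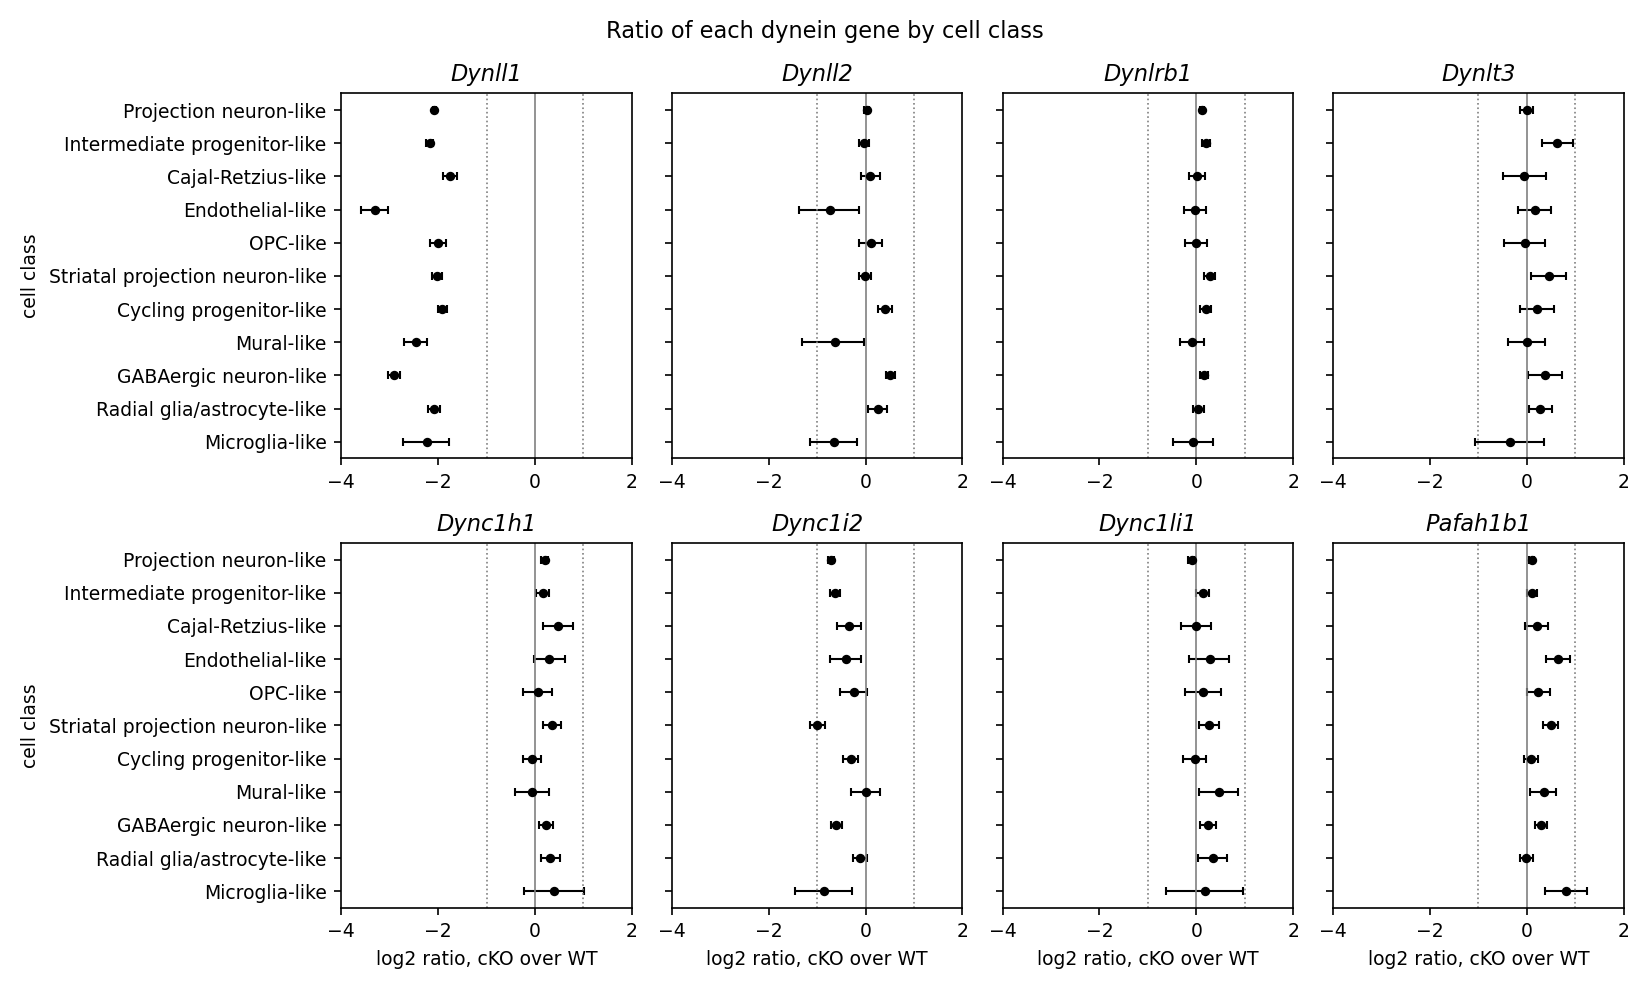
Each panel gives the log2 ratio of cKO over WT (horizontal) of 1 dynein gene in the 11 named classes with at least 20 cells per library (vertical), with 95% counting intervals; the solid line marks 0 and the dotted lines mark 2-fold. Dynll1 lies between -3.30 and -1.76 in each class, Dync1i2 between -1.0 and 0.00, and no other member passes 2-fold in a class.

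The patterns most like those of the members were sought among the 6889 genes with at least 50 CPM in some class, by Pearson's r of log2(CPM + 10) over the 11 classes of the WT library. For Dynll1 these were Cul4a (r = 0.95 in WT and 0.28 in cKO), Sdccag3 (0.94 and 0.69), Pitpnb (0.94 and 0.61), Dync1h1 (0.92 and 0.56) and Scaf1 (0.92 and 0.73). Of the 5, only Dync1h1 is a member. The closest gene to Dynll2 was Basp1 (0.95 in WT and 0.94 in cKO), and that to Dynlrb1 was Pam16 (0.98 and 0.62). Those closest to Dync1h1, Dync1i2, Dync1li1 and Pafah1b1 were Camsap2 (0.97 and 0.75), Rbfox2 (0.97 and 0.67), Fam57b (0.96 and 0.90) and Praf2 (0.98 and 0.45). The classes share their library and differ in depth, and each r was picked as the highest of many.

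Lists of related genes, chosen with earlier results of these data known, gave 59 genes, all with at least 50 UMIs. Of these, 4 (6.78%) were at least 2-fold lower and 0 at least 2-fold higher in cKO, against 19.5% and 2.62% of all genes, and the median log2 ratio was -0.03, against -0.24. The share of genes lower was thus below that of all genes. The lists were not matched to all genes in level and were chosen with earlier results known, so nothing is read from it. Among the 7 other subunits of dynein 1, Dynlrb2 was past 2-fold, with 1307 UMIs in WT and 390 in cKO (log2 ratio -1.73). This second roadblock gene was nearly confined to ependymal-like cells, which held 92.4% of its UMIs in WT and 79.2% in cKO. Within those cells its level was 1612 and 1533 CPM (ratio -0.07, interval -0.26 to 0.11). In all other cells its ratio was -0.28 (-0.73 to 0.15), on 99 WT and 81 cKO UMIs. There were 44 ependymal-like cells in WT and 11 in cKO, and the part of that number in the ratio over all kept cells was not tested.

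Cytoplasmic dynein 2, which moves cargo in cilia, had 2 of its 5 genes at least 2-fold lower, and 1 of 5 with TMM factors, beside 19.5% of all genes. The light intermediate chain Dync2li1 had 33.1 CPM in WT and 12.7 in cKO (-1.38), and the intermediate chain Wdr60 14.6 and 6.52 CPM (-1.16). With TMM factors Wdr60 was at -0.90, inside 2-fold. The light chain Tctex1d2 stood at -0.96, whereas the heavy chain Dync2h1 was at 0.18 (0.07 to 0.29). In projection neuron-like cells the ratio of Dync2li1 was -1.79, in ependymal-like cells 0.10 (-0.36 to 0.53). Wdr60 likewise was at -1.30 in projection neuron-like and 0.17 (-0.47 to 0.77) in ependymal-like cells.

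Beside 19.5% of all genes lower and 2.62% higher and a median of -0.24, none of the 12 dynactin genes was past 2-fold (median 0.01, range -0.39 to 0.49), nor of the 15 adaptors and regulators (median 0.08, -0.66 to 0.47), nor of the 10 kinesins (median -0.06, -0.85 to 0.45). Among 10 genes of LC8 regulation and LC8 partners, 1 was at least 2-fold lower and 0 at least 2-fold higher (median 0.14, -1.12 to 0.97). With TMM factors these counts were 0 and 1. The inhibitory synapse scaffold gephyrin (Gphn), a known LC8 binder and the lowest of the 10, had 50.2 CPM in WT and 23.1 in cKO (-1.12, and -0.86 with TMM factors). Atmin, which encodes a transcription factor that activates Dynll1 and is itself bound by LC8, had 688 UMIs in WT and 1333 in cKO, or 12.3 and 24.2 CPM, a ratio of 0.97 (0.84 to 1.11), which was 1.24 with TMM factors.

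**Figure D5:**
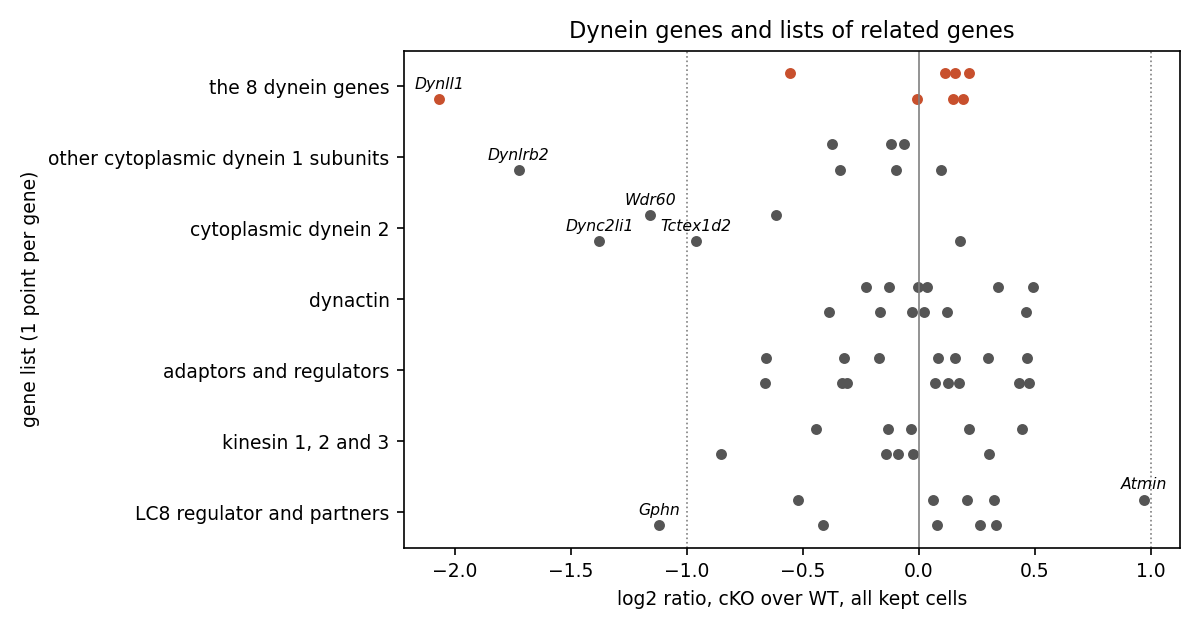
Points are the log2 ratios of cKO over WT over all kept cells (horizontal) of the 8 dynein genes (orange) and of 59 related genes by list (grey), with dotted lines at 2-fold and names for genes at or beyond 0.9 in size. The genes past 2-fold are Dynll1, Dynlrb2, Dync2li1, Wdr60 and Gphn, each lower in cKO.

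The longest protein-coding Dynll1 transcript, of 2030 bases, also shares a stretch within bases 1449 to 1600 with transcripts of 58 other genes at 95% identity or more over at least 100 bases. Of these, 15 were in the matrices and 13 had at least 50 UMIs. Of the 13, 5 were at least 2-fold lower, where 19.5% of all genes were. They were Rad51c (-2.62), Iqcc (-1.68), 1700037C18Rik (-1.52), Mapk12 (-1.35) and Slfn5 (-1.06). Iqcc and 1700037C18Rik share the stretch on the opposite strand. The part of the shared stretch in any of these ratios was not tested. The one with the most UMIs, Mrpl20, was at 0.12. Within 500 kb of Dynll1 lay 26 genes with at least 50 UMIs, with a median log2 ratio of 0.01. The nearest, Gm13830 and Coq5, 121 and 138 bases away, were at -0.59 and 0.16. Of the 26, 3 were at least 2-fold lower, where 19.5% of all genes were, and 0 at least 2-fold higher. The 3 were Sirt4 (460 and 82 UMIs, -2.47), Oasl2 (87 and 10, -3.10) and Gm9936 (58 and 12, -2.25). Of the 8 dynein genes only Dync1h1 overlapped another gene of the matrices, the antisense gene Gm17111, with 6 WT and 14 cKO UMIs.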

How the data were processed

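As the labels and the methods of the study state, telencephalic tissue was dissociated, captured on the 10x Genomics Chromium platform and sequenced. The authors deposited a matrix of raw UMI counts per gene and barcode for each library. Its header names Cell Ranger 3.0.1, while the submitters' processing notes name Cell Ranger 2, STAR, Seurat and build mm9; whether counting used strand is not given in the sources used here. A combined matrix, in which the cKO counts are 94.5% of those in its own matrix, served as an alternative. The authors' marker table, which holds their comparisons, was not used.

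Cells with at least 500 genes and at most 10% mitochondrial UMIs were kept. Scrublet (scanpy 1.11.5) marked 0 cKO cells at its automatic threshold, so the WT threshold was applied to both libraries, a choice made after seeing this (2.44% of WT and 1.74% of cKO cells removed). Leiden clustering (leidenalg 0.10.2) of both libraries at resolution 1 used 2000 variable genes, 30 components and 15 neighbours, without the dynein, related, mitochondrial, ribosomal protein, haemoglobin, Xist and Y-linked genes. Clusters were named by marker lists, and a rule added after seeing the clusters left 1 with Slc17a7 among its leading genes unnamed.

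UMIs were summed per class and library. CPM carry exact Poisson intervals and ratios exact conditional binomial intervals (scipy 1.17.1). Depth was 69554624 WT and 67448785 cKO UMIs. No test was run, as each group is 1 library. Values are named for the 8 members, related genes and neighbours past 2-fold with at least 50 UMIs, copies with at least 10, and the genes most like each member in pattern (that for Dynlt3 is not reported here); Tctex1d2, Dync2h1, Atmin, Foxj1, Gm13830 and Coq5 were named after their values were seen. The members and lists were chosen with earlier results of these data known. By identifier, 27645 of 27998 genes matched GENCODE M21; copies were sought with BLAST 2.17.0. TMM factors came from edgeR 4.0.16 (R 4.3.3) and were used for scaling only.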

Additional observations from a re-analysis of the deposited data

Results flagged for a closer look

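The ratio of Dynll2 had opposite signs in different classes, with intervals on either side of 0. In endothelial-like cells its log2 ratio of cKO over WT was -0.74 (-1.37 to -0.14), on 94 WT and 31 cKO UMIs, and in GABAergic neuron-like cells it was 0.51 (0.41 to 0.61), on 1449 and 2120 UMIs. The latter class lies in different clusters in each library, and in its clusters with at least 50 cells of both the ratio was 0.22 (0.07 to 0.37) and 0.07 (-0.13 to 0.27). Dync1li1 did the same at smaller size, with -0.10 (-0.17 to -0.02) in projection neuron-like cells and 0.46 (0.05 to 0.86) in mural-like cells, the latter on 182 and 72 UMIs. Mural-like cells had a median depth of 20219 UMIs in WT and 7740 in cKO. With 1 library per group the difference between classes was not tested, and each pair was picked as the lowest and the highest of 11 classes. Under classes taken from single cells by marker score, Dynll2 in endothelial-like cells was at -0.00. Dync1li1 in projection neuron-like cells was at 0.07 with TMM factors.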

How the results depend on the processing

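No paired analysis was possible because each group has 1 library. The Dynll1 log2 ratio over all kept cells was -2.07; it was -2.37 with at least 1000 genes and at most 5% mitochondrial UMIs, -1.80 with TMM factors, -2.43 as the mean of each cell's CPM, -2.10 with the class makeup of both libraries together and -2.46 with cells thinned to 1000 UMIs. In projection neuron-like cells it was -2.08; it was -1.91 without cell filters, -2.35 with the stricter filter, -1.92 with TMM factors, -2.47 as the mean of each cell's CPM, -2.0 and -1.97 at resolutions 0.5 and 2, -1.91 with each library clustered alone and -2.0 with single cells classed by marker score. Dynll1 was at least 2-fold lower in all 126 values computed for it under these alternatives over all kept cells and the 11 classes, from -3.32 to -1.15, the latter in microglia-like cells as the mean of each cell's CPM. All 126 values come from the 1 library per group on which Dynll1 was chosen. The count of members at least 2-fold lower stayed at 1 in each alternative run. TMM factors shift all ratios over all kept cells by 0.26; under them 2 related genes in place of 4 were at least 2-fold lower (Dynlrb2 and Dync2li1), and Atmin was past 2-fold higher. Of 84 ratios of the other 7 members, 37 changed sign under some alternative. Past 2-fold lower were Dync1i2 in striatal projection neuron-like cells under 4 alternatives (lowest -1.04) and Dynll2 in mural-like cells without cell filters (-1.16), and past 2-fold higher were Dynlt3 in striatal projection neuron-like cells (1.15, stricter filter) and Pafah1b1 in microglia-like cells (1.06, mean of each cell's CPM). The cause of these shifts was not tested. Pooling projection neuron-like and intermediate progenitor-like cells, and leaving out ependymal-like cells, were chosen after seeing the data and gave -2.09 and -2.08, within the reported intervals for projection neuron-like cells and for all kept cells; the former lies outside that of intermediate progenitor-like cells alone.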
